A study of Mus musculus with 20 samples.

Results

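The 9 genes described here encode kinases of the extracellular signal-regulated kinase (ERK) cascade and proteins that restrain it. They were taken by gene symbol from the 37561 genes shared by all tables, and each of the 9 symbols matched 1 gene. The kinases were Mapk3, Map2k1 and Map2k2, and the inhibitors were Ptpn7, Dusp4, Dusp6, Spry1, Spry2 and Spry4. RNA-seq followed the differentiation of spherical neural masses toward neurons from day 0 to day 14. The masses are free-floating aggregates of neural precursors and were made from D3 mouse embryonic stem cells (strain 129s2/SvPas). The control line had been infected with a virus carrying a short hairpin RNA against luciferase, and the HPRT knockdown line with one against HPRT, the purine salvage enzyme whose loss causes Lesch-Nyhan disease. Both lines were maintained on mouse embryo fibroblast feeder cells with leukemia inhibitory factor and basic fibroblast growth factor (FGF). They were selected with puromycin and were then differentiated toward dopaminergic neurons. Sonic hedgehog, FGF8 and ascorbic acid are among the culture and differentiation reagents that the study lists, and its methods do not give the days of their use. Libraries were made daily from day 0 to day 4 and every other day from day 6 to day 14, with 1 library per line and day and 20 libraries in all. RNA of the cultures of 1 time point was pooled for its library, and each condition was 1 infected line, so no replicate line stands behind any comparison.

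In the ERK cascade, growth factor receptors activate RAS, RAS activates a first tier of kinases, these phosphorylate the MEK kinases (Map2k1 and Map2k2), and the MEK kinases phosphorylate the ERK kinases, among them ERK1 (Mapk3). Active ERK induces its own inhibitors: Dusp4 and Dusp6 are phosphatases that remove the activating phosphates, and Sprouty proteins act upstream, between the receptors and these kinases. In mouse embryonic stem cells FGF4 acting through ERK is known to promote exit from the pluripotent state, and transcripts of Dusp6 and the Sprouty genes are widely used as readouts of FGF signaling. Transcript levels measure neither the phosphorylation of ERK nor its activity.

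The deposited values allow only ratios between the 2 libraries of a table. Each value below is the log2 ratio of the HPRT knockdown over the control on 1 day unless stated otherwise, and errors are standard deviations (SD) over the 9 days tested, all but day 6, which the study also left out of its pathway analysis. A gene passed the filter when its typical log2 normalized count was at least 4. Of the 9 members, 8 passed, all of them at a typical log2 count of at least 8. Ptpn7 lay under the filter and was tested in a fit without it. Reads per library could be recovered for Mapk3, Map2k1, Map2k2, Ptpn7, Dusp6 and Hprt. For the other members only relative levels are given. The relative size factors of the 20 libraries ranged from 0.843 to 1.64, and the factor of the knockdown library was between 0.576 and 1.36 times that of the control library of the same day. Hprt, the targeted gene, had a mean ratio of -4.00 ± 0.89 (SD, n = 9 days) and its ratio was below 0 on all 10 days.

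Over the 9 days, 4 of the 8 members past the filter differed between the lines by limma with Benjamini-Hochberg adjustment at 0.05, where 52.9% of all 13406 genes tested did. Mapk3 and Map2k1 were higher in the knockdown line, as were 26.2% of all genes, and Dusp4 and Map2k2 were lower, as were 26.7%. The members past the filter were therefore called about as often as genes in general. Without the filter, where 40.5% of 19041 genes were called, Ptpn7 was lower as well. The ratios of Dusp6, Spry1, Spry2 and Spry4 did not pass the test, and they went in opposite directions on different days. In pooled libraries of whole cultures, fewer cells of a type and less RNA per cell cannot be told apart.

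**Figure D1:**
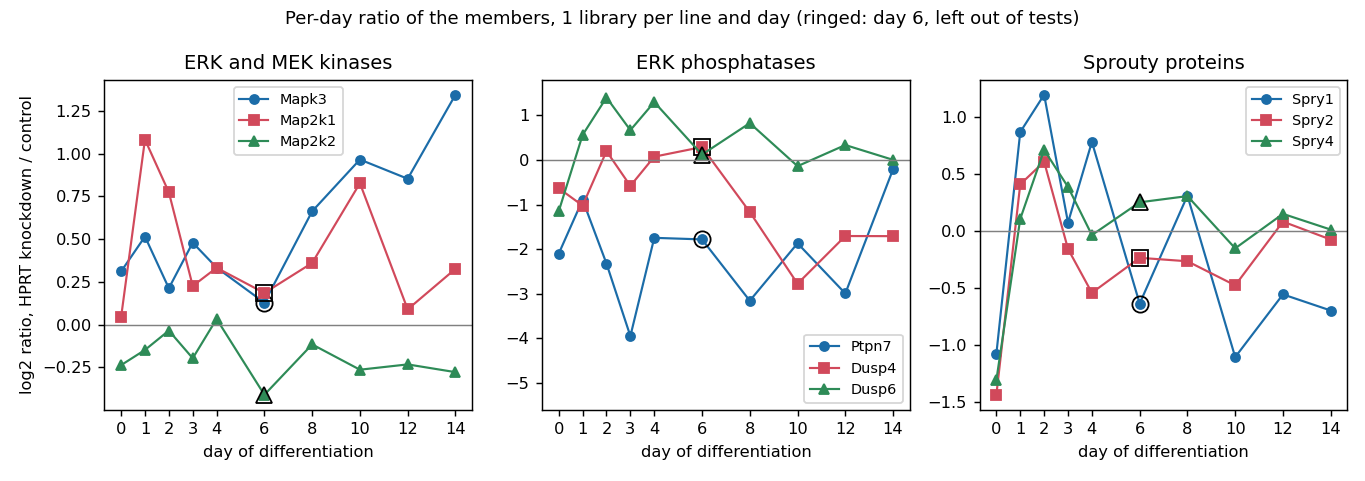
Log2 ratio (HPRT knockdown over control, y axis) of the 9 members against the day of differentiation (x axis), with 1 point per day from the 2 libraries of that day; the ringed points are day 6, which was left out of the tests. Mapk3 climbs to 1.35 on day 14, Ptpn7 is below 0 on every day, and Dusp6 and the 3 Sprouty genes go from below -1 on day 0 to above 0.6 on day 2.

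Mapk3 (Gene ID 26417, NCBIM37 chromosome 7, 133903115 to 133909333, plus strand) encodes ERK1. From day 0 to day 4 its daily ratios were 0.31, 0.52, 0.21, 0.48 and 0.33. From day 8 to day 14 they were 0.66, 0.97, 0.85 and 1.35, with 0.13 on day 6. The knockdown library was higher on all 10 days, and the ratios of day 8 onward all lay above those of days 0 to 4. The mean was 0.63 ± 0.37 (SD, n = 9 days), or 1.55-fold, with a limma adjusted p of 0.00172 and an exact two-sided sign-flip permutation p of 0.00390625, the smallest that 9 days allow. The same sign on all 9 days was found in 29.6% of genes past the filter, and here in Mapk3 and Map2k1. In reads scaled to a common depth, the control libraries held between 935 and 1322 with a median of 1104, and the knockdown libraries between 1201 and 3184 with a median of 1486. The ranges overlapped, and 7 of the 10 knockdown libraries lay above every control library. The lines overlapped in this way for each of the 9 members, while 2.02% of genes past the filter had no overlap between the lines over the 10 days.

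The ratio of Mapk3 rose by 0.0651 ± 0.0135 (SE) per day on the log2 scale, with a limma adjusted p of 0.018, and Mapk3 was the single member whose ratio had a slope past the threshold. A slope of the ratio was called for 14.1% of genes. Within the knockdown line Mapk3 rose by 0.0807 ± 0.0143 per day (limma adjusted p = 0.0129), where 12.6% of genes had a called slope in either direction. Within the control line the slope was 0.013 ± 0.0096 (limma adjusted p = 0.301). Control slopes were added up along the control tables, including that of days 3 and 4, whose values did not match the other tables. With the tables joined without it, the control slope of Mapk3 was 0.0293 and passed (limma adjusted p = 0.0338). Day 14 carried part of the rise in the ratio and in the knockdown line. Without it the slope of the ratio was 0.0525 with a limma adjusted p of 0.0814, and that of the knockdown line 0.0677 with 0.0877. On a log2(day + 1) axis neither slope passed, with limma adjusted p of 0.0599 and 0.121. Mapk3 is one of the genes that the study singled out from these same libraries, so its values are not independent evidence.

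Map2k1 (Gene ID 26395, chromosome 9, 64033577 to 64101438, minus strand) encodes MEK1. The ratio was highest on day 1 at 1.08, followed by 0.83 on day 10 and 0.78 on day 2, and lowest on day 0 at 0.04 and day 12 at 0.09. All 10 days were above 0, but the days were far apart. The average was 0.45 ± 0.36 (SD, n = 9 days), or 1.37-fold, with a limma adjusted p of 0.00898 and an exact sign-flip p of 0.00390625. Scaled reads were between 861 and 1377 in the control libraries (median 1046) and between 1067 and 2455 in the knockdown libraries (median 1477), with 6 of the 10 knockdown libraries above every control library. Map2k1 had no called slope in either line or in the ratio.

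Map2k2 (Gene ID 26396, chromosome 10, 80568660 to 80587442, plus strand) encodes MEK2. Its ratio lay between -0.28 on day 14 and 0.03 on day 4 and was below 0 on 8 of the 9 days, and day 6 gave -0.41. It averaged -0.16 ± 0.11 (SD, n = 9 days), a fold of 0.893, with a limma adjusted p of 0.0383 and an exact sign-flip p of 0.00781. The difference was small, and leaving out any one of days 0, 1, 3, 8, 10, 12 or 14 took it past the threshold, with limma adjusted p between 0.055 and 0.0808. Without pairing the libraries by day the limma adjusted p was 0.231, and with all tables joined and paired by day it was 0.0595. In the control line Map2k2 fell by 0.0356 ± 0.0083 per day (limma adjusted p = 0.00812), where 43.4% of genes had a called slope. With the tables joined, without the control table of days 3 and 4, the control slope was -0.0233 (limma adjusted p = 0.045). In the knockdown line the slope was -0.0469 ± 0.0137 with a limma adjusted p of 0.0539, and without day 0 it was -0.056 with 0.0278.

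Per kilobase of merged exons, the kinases were of similar level in the control line, with medians over 10 libraries of 510 scaled reads for Mapk3, 365 for Map2k2 and 309 for Map2k1. In the knockdown line the medians were 687 for Mapk3, 312 for Map2k2 and 436 for Map2k1. By these medians Map2k1 stood below Map2k2 in the control line and above it in the knockdown line. The ranges over the 10 libraries overlapped within each line, from 254 to 406 for Map2k1 and from 308 to 406 for Map2k2 in the control, and from 315 to 724 and from 242 to 396 in the knockdown.

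Ptpn7 (Gene ID 320139, chromosome 1, 137029302 to 137041897, plus strand) encodes a tyrosine phosphatase best known from blood cells, which binds and dephosphorylates ERK. It was expressed at the edge of detection. The control libraries held between 3 and 27 reads with a median of 15.6, and the knockdown libraries between 1 and 7 with a median of 2.5, or 148 reads against 32.2 over the 10 days. On day 3 there were 27 reads in the control and 1 in the knockdown, on day 8 there were 23.6 and 3, and on day 14 there were 3 and 2. The knockdown library had fewer reads on every day, though the 2 ranges overlapped. Recovered reads that are not whole numbers come from reads counted in part.

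**Figure D2:**
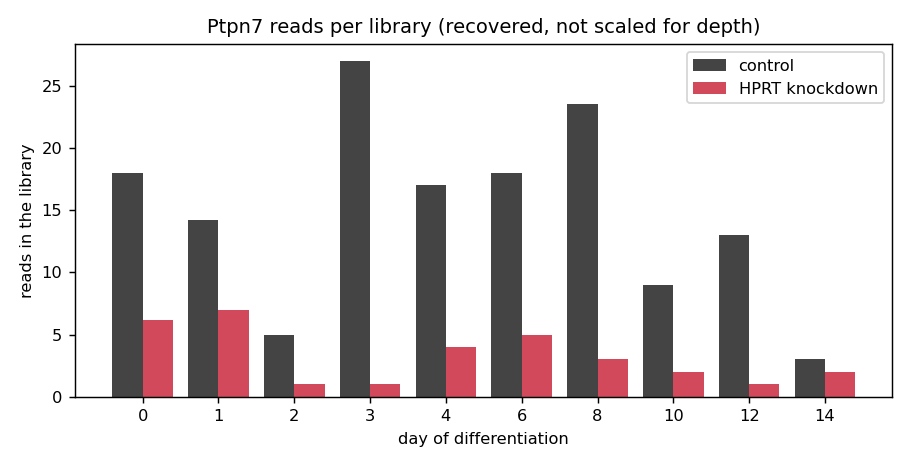
Reads of Ptpn7 in each library (y axis, not scaled for depth) by day of differentiation (x axis), with the control in dark gray and the HPRT knockdown in red; each bar is 1 library. The knockdown bar is the lower one on all 10 days, and no knockdown bar exceeds 7 reads.

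The Ptpn7 ratio ran from -3.95 on day 3 to -0.21 at the last time point. Its mean was -2.14 ± 1.15 (SD, n = 9 days), a level at 22.7% of control, with a limma adjusted p of 0.00183 in the fit without the filter and an exact sign-flip p of 0.00390625. The 95% counting interval of the ratio (exact Clopper-Pearson, reads rounded to whole numbers) lay below 0 on 6 of the 10 days. The knockdown library held 3 reads or fewer on 6 days, and there the intervals were wide. With 1 read on day 3 the interval ran from -9.32 to -1.36, and with 2 reads on day 14 from -3.85 to 2.85. These intervals cover counting error only. Of 10 leukocyte markers, 3 passed the filter and all 3 were lower in the knockdown line, where 26.7% of all genes past the filter were. They ran from Coro1a at -0.69 ± 0.43 to Laptm5 at -2.04 ± 1.11 (SD, n = 9 days). The other 7 lay under the filter, and 1 of these, Cd3g, was at 0 in every table. The mean log2 level of the 3 markers, relative to its own mean over all libraries, lay between 0.07 and 1.10 in the control libraries and between -2.11 and 0.23 in the knockdown libraries. Their part in the Ptpn7 result was not tested. Ptpn7, too, is a gene that the study singled out from these libraries.

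Dusp4 (Gene ID 319520, chromosome 8, 35870351 to 35882948, plus strand) encodes a nuclear dual-specificity phosphatase of ERK. From day 0 to day 4 its daily ratios were -0.63, -1.02, 0.20, -0.58 and 0.07, and day 6 gave 0.29. From day 8 to day 14 they were -1.17, -2.77, -1.70 and -1.71. Days 8 to 14 thus lay below all earlier days. The average ratio was -1.03 ± 0.94 (SD, n = 9 days), a level at 48.8% of control, with a limma adjusted p of 0.0116 and an exact sign-flip p of 0.0156. The slope of the ratio was -0.131 ± 0.0432 per day with a limma adjusted p of 0.0718, and of the alternatives run it passed with the stricter filter alone, with 0.0493.

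Relative to the control on day 0, Dusp4 in the control line stood at 1.17, 1.05, 0.82 and 0.06 on days 8, 10, 12 and 14. In the knockdown line the levels of these days were 0.03, -1.79, -0.92 and -1.72. The lines had also been apart on day 1, with 0.06 in the control and -0.83 in the knockdown. Of the 10 knockdown libraries, 6 lay below every control library. The value of a library for Dusp4 differed between tables by at most 0.00596 from the joined fit.

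**Figure D3:**
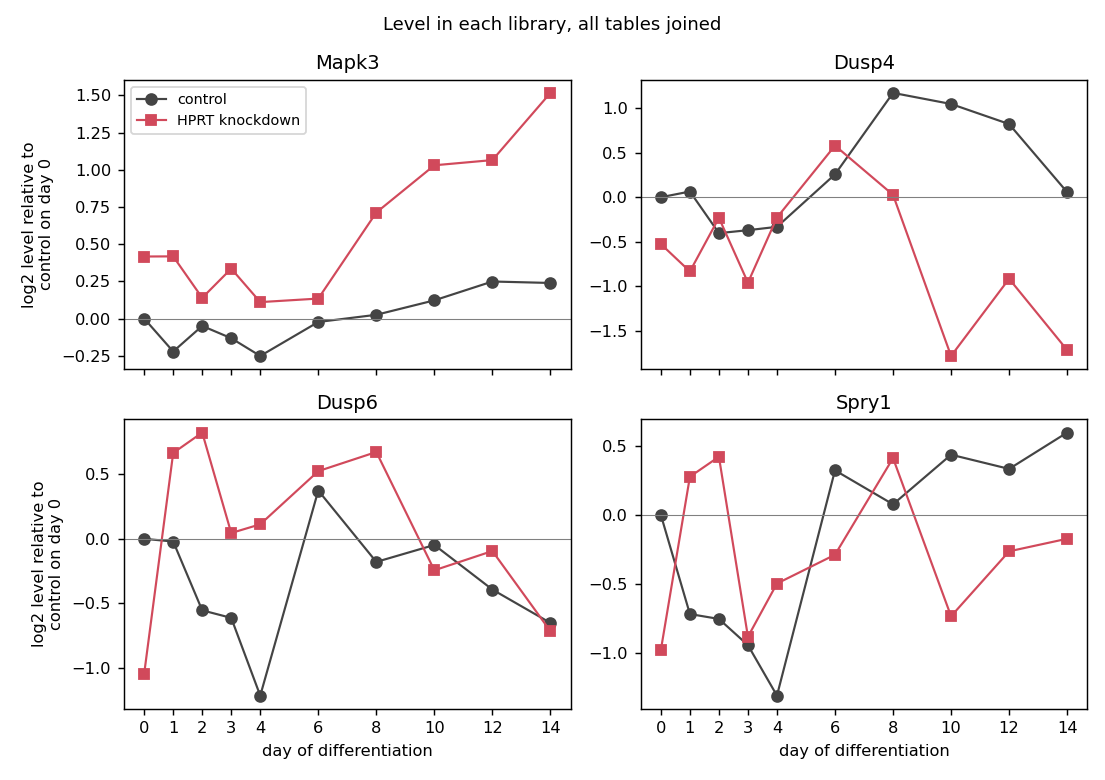
Log2 level of Mapk3, Dusp4, Dusp6 and Spry1 in each library relative to the control library of day 0 (y axis) by day of differentiation (x axis), with all tables joined; dark gray circles are the control and red squares the HPRT knockdown. Mapk3 stands at 1.52 in the knockdown line on day 14, Dusp4 at 1.17 in the control line on day 8 and stands at -1.79 in the knockdown line on day 10, and Dusp6 and Spry1 cross between day 0 and day 1.

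Cell type markers also had ratios away from 0, on the late days and on some of the early ones. The mean ratio of 10 oligodendrocyte lineage markers was between 2.92 and 4.77 on days 8, 10, 12 and 14. On days 0 to 4 it was between -0.62 and 3.22, with 0.16 on day 2, 3.22 on day 3 and 0.007 on day 4. For 9 neuronal markers it was between -1.94 and -1.29 on days 8 to 14 and between -1.67, on day 2, and 0.29 on days 0 to 4. For 10 pluripotency markers it was -4.71 on day 10 and between -2.19 and -1.32 on days 8, 12 and 14. It was between -6.15, on day 1, and -0.71 on days 0 to 4. For 10 fibroblast markers it was 0.37 on day 8 and between -1.36 and -1.10 on days 10 to 14. Over the 9 days, 5 of 10 oligodendrocyte lineage markers were higher and none lower. They ran from Olig2 at 3.02 ± 1.44 to Mog at 0.41 ± 1.89 (limma adjusted p = 0.564), higher on 4 days and lower on 5. Of 9 neuronal markers 5 were lower and none higher, from Stmn2 at -2.01 ± 1.003 to Map2 at 0.35 ± 0.44 (SD, n = 9 days). Map2 was higher on 8 days (limma adjusted p = 0.0561). Of all genes past the filter, 26.2% were higher and 26.7% lower. Of the neuronal markers 1 lay under the filter, and no marker of either list was at 0 in every table. The mean log2 level of the oligodendrocyte lineage list ranged from -1.82 to 0.37 in the control libraries and from -1.40 to 2.97 in the knockdown libraries, and that of the neuronal list from -0.30 to 1.38 and from -1.59 to 0.56. Their part in the results for Mapk3 and Dusp4 was not tested.

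Dusp6 (Gene ID 67603, chromosome 10, 98725865 to 98730122, plus strand) encodes the cytoplasmic ERK phosphatase MKP-3. Spry1 (Gene ID 24063, chromosome 3, 37538869 to 37543520, plus strand) and Spry2 (Gene ID 24064, chromosome 14, 106291166 to 106296036, minus strand) encode Sprouty proteins, as does Spry4. Their ratios moved together at the start of the course. To show what precedes genes that moved together, the 250 bases before the RefSeq start site (GRCm38.p6) are given for Dusp6 (chr10:99262981-99263230, plus strand), Spry1 (chr3:37639697-37639946, plus strand) and Spry2 (chr14:105896820-105897069, minus strand), beside that of the kinase gene Map2k1 (chr9:64253606-64253855, minus strand). Capitals mark CCGGAA, a core motif of ETS transcription factors, several of which are ERK substrates.
Dusp6: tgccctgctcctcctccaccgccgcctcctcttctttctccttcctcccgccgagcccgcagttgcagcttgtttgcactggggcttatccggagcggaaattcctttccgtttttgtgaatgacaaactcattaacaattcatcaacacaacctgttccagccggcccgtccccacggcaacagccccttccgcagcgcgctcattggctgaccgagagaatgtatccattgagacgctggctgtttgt
Spry1: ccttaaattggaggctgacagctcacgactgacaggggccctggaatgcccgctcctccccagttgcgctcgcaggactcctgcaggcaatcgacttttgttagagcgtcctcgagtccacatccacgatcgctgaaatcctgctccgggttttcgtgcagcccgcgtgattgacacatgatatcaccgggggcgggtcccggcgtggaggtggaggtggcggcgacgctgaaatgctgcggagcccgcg
Spry2: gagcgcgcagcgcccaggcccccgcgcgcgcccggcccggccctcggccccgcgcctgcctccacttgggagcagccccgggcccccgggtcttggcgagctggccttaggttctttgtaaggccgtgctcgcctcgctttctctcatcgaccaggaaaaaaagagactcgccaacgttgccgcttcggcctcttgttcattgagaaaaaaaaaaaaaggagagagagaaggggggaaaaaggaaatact
Map2k1: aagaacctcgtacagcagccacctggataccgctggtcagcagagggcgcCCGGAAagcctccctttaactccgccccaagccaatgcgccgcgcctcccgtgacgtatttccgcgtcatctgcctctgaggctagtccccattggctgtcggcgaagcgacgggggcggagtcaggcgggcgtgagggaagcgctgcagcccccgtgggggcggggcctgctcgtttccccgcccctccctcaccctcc

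Searched on both strands, CCGGAA occurred in 12.0% of the 32851 promoter windows of this length in the table. Of the 6 members searched (Ptpn7 in 2 windows) it occurred in Map2k1 alone, and Mapk3, Dusp4 and Spry4 were not searched. The AP-1 motif TGACTCA was in 4.46% of windows and the CRE motif TGACGTCA in 1.55%, and neither was in a window of these 6 members. A missing match says only that these letters are not in this window.

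Spry4 (Gene ID 24066) lies on chromosome 18, 38745922 to 38760922, minus strand. On day 0 Dusp6 stood at -1.15, Spry1 at -1.08, Spry2 at -1.44 and Spry4 at -1.31, and Dusp4 at -0.63. All 5 feedback genes were lower in the knockdown library, 4 of them by more than 2-fold, where 6.64% of genes past the filter were more than 2-fold lower on that day. On day 1 the ratios were 0.56 for Dusp6, 0.87 for Spry1, 0.41 for Spry2 and 0.11 for Spry4. On day 2 they were 1.40, 1.196, 0.61 and 0.71, so that all 5 feedback genes, with Dusp4 at 0.20, were higher in the knockdown library. With 1 library per line and day, neither day has a replicate check, and these days were picked out after the values were seen.

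The switch came from both lines. Relative to the control on day 0, the knockdown line went from -1.04 on day 0 to 0.82 on day 2 for Dusp6, from -0.97 to 0.42 for Spry1, from -1.33 to -0.33 for Spry2 and from -1.204 to 0.23 for Spry4. Over the same days the control line went from 0 to -0.55 for Dusp6, -0.75 for Spry1, -0.91 for Spry2 and -0.45 for Spry4. The control line then reached its lowest level of the course on day 4 for Dusp6, Spry1 and Spry4 and on day 2 for Spry2, and the knockdown line had its lowest level on day 0 for all 4 genes. In scaled reads, Dusp6 went from 2125 in the control and 1030 in the knockdown on day 0 to 1448 and 3760 on day 2.

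After day 2 the 4 genes diverged. Dusp6 remained above 0 on days 3, 4, 8 and 12, with 1.298 on day 4 as the highest of these, and stood at -0.14 on day 10 and 0.0037 on day 14. Spry1 was at 0.78 on day 4 and 0.31 on day 8, and its last 3 ratios were -1.11, -0.56 and -0.70. Spry2 lay between -0.54 and 0.08 from day 3 to day 14, and Spry4 between -0.15 and 0.39.

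Over the 9 days the mean ratio was 0.42 ± 0.79 for Dusp6 (limma adjusted p = 0.158), -0.02 ± 0.87 for Spry1 (0.944), -0.21 ± 0.60 for Spry2 (0.363) and 0.02 ± 0.56 for Spry4 (0.935; SD, n = 9 days each). Day 0 weighed on all 4. Without it the mean of Dusp6 was 0.62 with a limma adjusted p of 0.0174, and the means of Spry1, Spry2 and Spry4, none of them called, were 0.11, -0.053 and 0.18. With days 0, 1 and 2 all left out, a choice made after the data were seen, the means over 6 days were 0.50 ± 0.54 for Dusp6, -0.20 ± 0.71 for Spry1, -0.24 ± 0.24 for Spry2, 0.11 ± 0.21 for Spry4 and -1.31 ± 0.99 for Dusp4. Spry1 rose in the control line by 0.0964 ± 0.0293 per day (limma adjusted p = 0.0255) and had a slope of 0.0029 ± 0.0361 in the knockdown line (0.967). The slope of its ratio was -0.0818 ± 0.0502 with a limma adjusted p of 0.288, so the lines were not shown to differ in slope with all 9 days, though without day 0 it was -0.143 with 0.0376. The control slope was lost without any one of days 2, 10, 12 or 14, with limma adjusted p between 0.0507 and 0.0876, and on a log2(day + 1) axis, with 0.177.

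Cell type markers also had ratios away from 0 on days 0, 1 and 2. On these days the mean ratio was 1.01, 0.62 and 0.84 for radial glia and astrocyte markers and 0.59, -1.68 and -0.55 for endothelial markers. It was -0.69, -2.57 and -2.02 for leukocyte markers and 0.29, -0.27 and -1.67 for neuronal markers. Fibroblast markers stood at 0.29, -0.11 and -0.50, and oligodendrocyte lineage markers at -0.62, 0.075 and 0.16. The mean ratio of 10 pluripotency markers was -0.71, -6.15 and -3.05 on days 0, 1 and 2. Over the 9 days all 10 were lower in the knockdown line, from Klf4 at -1.06 ± 0.72 to Zfp42 at -3.43 ± 2.67 (SD, n = 9 days). Of all genes past the filter, 26.7% were lower and 26.2% higher. The mean log2 level of the 10 pluripotency markers ranged from 0.19 to 2.10 in the control libraries and from -5.13 to 0.78 in the knockdown libraries. None of them was at 0 in every table. The mean ratio of the 5 of 10 endoderm markers past the filter was 1.88 on day 0 and 0.13 on day 1. Their median was 1.60 on day 0, -0.50 on day 1 and -0.13 on day 2. Over the 9 days 1 of the 5 was called, Foxa1, higher at 2.77 ± 0.75. The other 4 did not pass, with Gata4 lowest at -0.96 ± 1.32 (limma adjusted p = 0.0619). The range of the list was -1.04 to 1.07 in the control and -0.92 to 1.79 in the knockdown. Of 10 radial glia and astrocyte markers 8 were higher and 1 lower, from S100b at 3.63 ± 3.22 to Hes5 at -0.99 ± 1.02. Of 10 fibroblast markers, a list for the feeder cells, 3 were lower and none higher, with Fap lowest at -1.14 ± 1.03 and Pdgfrb highest at 0.49 ± 0.74 (limma adjusted p = 0.09). Of 9 endothelial markers 5 were lower and 1 was higher, from Pecam1 at -1.70 ± 1.92 to Flt1 at 1.44 ± 0.83. The part of these markers in the ratios of the feedback genes was not tested.

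Across the 10 days, and as a description only, the ratios of Dusp6 and Spry1 correlated with Pearson's r = 0.87, those of Spry2 and Spry4 with 0.87 and those of Dusp6 and Spry4 with 0.83. The ratios of Mapk3 and Dusp4 had r = -0.85. Values of a day come from the same 2 libraries and share their depth and scaling. Among all genes past the filter, the ratios most like those of Mapk3 belonged to Hey2 (r = 0.97) and Usf2 (0.96), and those most like Map2k1 to LOC100503860 (0.96) and Dus2l (0.96). For Map2k2 they belonged to Tmem150a (0.95) and Irf2bp2 (0.94), for Ptpn7 to Efna3 (0.88) and Sgtb (0.84), and for Dusp4 to Epb4.1l4a (0.97) and Cdc42ep4 (0.96). For Dusp6 they belonged to Wnt5b (0.94) and 3300002I08Rik (0.92), for Spry1 to Golm1 (0.94) and Renbp (0.93), for Spry2 to Rnf149 (0.96) and Mrpl30 (0.95), and for Spry4 to Terf2 (0.93) and 1110001A16Rik (0.92). Each r is over 10 days, and the pairs were picked as the highest among the genes past the filter.

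The rest of the pathway was read from 7 lists of 130 genes, 114 of which passed the filter. Of these, 36 were higher and 20 lower in the knockdown line, or 49.1%, against 52.9% of all genes. Differences between the lists were not tested. The counts of each list below stand beside 26.2% of all genes called higher and 26.7% called lower. The median of the mean ratios was 0.50 for 23 ERK-induced genes, 0.42 for 18 receptors and -0.44 for 14 FGF ligands, against 0.002 for all genes tested.

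**Figure D4:**
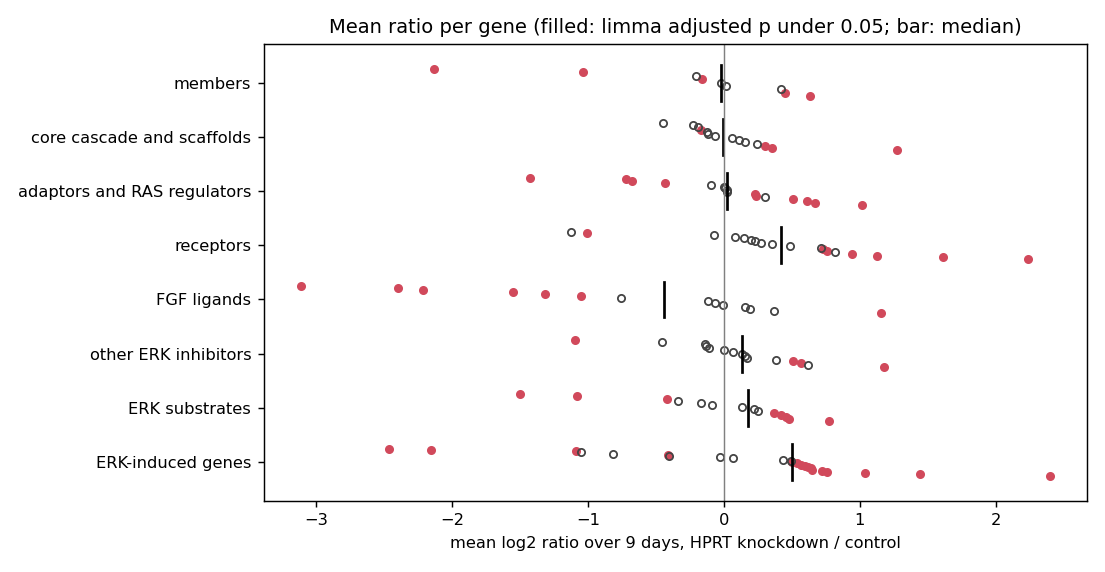
Mean log2 ratio over 9 days (x axis) of the 9 members and of the genes past the filter in 7 other lists of the pathway (rows); each point is 1 gene, filled points had a limma adjusted p under 0.05, and bars mark the median of the row. The bar of the FGF ligands lies at -0.44, those of the receptors and the ERK-induced genes at 0.42 and 0.50, and the members spread from -2.14 to 0.63; Ptpn7 is from the fit without the filter.

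Among the FGF ligands 6 of 14 were lower, 1 was higher and 7 did not pass, where 26.7% of all genes were lower and 26.2% higher. Fgf17 stood at -3.11 ± 1.02, Fgf4 at -2.40 ± 2.43 and Fgf15 at -2.21 ± 0.96, and Fgf11, an intracellular member of the family, at 1.16 ± 0.65 (SD, n = 9 days). Fgf4, the autocrine ligand of embryonic stem cells, had a ratio of -0.29 on day 0 and -7.94 on day 1. The mean ratio of the 10 pluripotency markers was -0.71 and -6.15 on those days. The ratios of Dusp6 and the Sprouty genes went from below to above 0, and a relation to Fgf4 was not tested. Among the receptors 6 were higher, 1 was lower and 11 did not pass. Fgfr3 stood at 2.24 ± 0.49, Fgfrl1 at 1.61 ± 0.61 and Ntrk2, the receptor for brain-derived neurotrophic factor, at 1.13 ± 0.81, and all 3 were higher on all 9 days.

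Among 14 other genes of the core cascade and its scaffolds 3 were higher, 1 was lower and 10 did not pass. Pea15a, which holds ERK in the cytoplasm, stood at 1.28 ± 0.39, and the kinase gene Araf at 0.30 ± 0.14. Among 16 adaptors and regulators of RAS 6 were higher, 4 were lower and 6 did not pass. The adaptor genes Shc3 at 1.02 ± 0.23 and Gab2 at 0.67 ± 0.20 were among the higher ones, while the exchange factors Rasgrp2 and Rasgrp1 stood at -1.43 ± 1.06 and -0.68 ± 0.55 and the adaptor Shc2 at -0.72 ± 0.41.

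Of 15 other inhibitors of ERK signaling 3 were higher, 1 was lower and 11 did not pass, with a median of 0.14. The phosphatase genes Dusp14 at 1.18 ± 0.49, Dusp7 at 0.57 ± 0.60 and Dusp5 at 0.51 ± 0.43 were the 3 higher ones. Of 14 ERK substrates 5 were higher, 3 were lower and 6 did not pass. Elk3 at 0.77 ± 0.34, Erf at 0.48 ± 0.31 and the kinase gene Mknk1 at 0.46 ± 0.25 were higher, and the kinase genes Rps6ka1 at -1.499 ± 0.61 and Rps6ka6 at -1.08 ± 0.42 and the transcription factor gene Srf at -0.42 ± 0.09 were lower.

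Of 23 genes on a list of ERK-induced genes 12 were higher, 4 were lower and 7 did not pass. The list was written by hand from general knowledge, and induction of its genes by ERK was not tested in these cells. Fos stood at 2.40 ± 1.21, Plaur at 1.44 ± 0.47 and Junb at 0.76 ± 0.56, and Mycn at -2.46 ± 1.23, Klf2 at -2.16 ± 1.17 and Arc at -1.09 ± 1.10. Mycn and Klf2 are also expressed in pluripotent cells. By day, the median ratio of these 23 genes was -0.43 on day 0, with 15 below 0, and 0.71 on day 1, with 16 above 0. Fos went from 0.33 on day 0 to 2.38 on day 1 and reached 3.99 on day 14.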

How the data were processed

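Total RNA of 20 libraries, 10 per line, was sequenced on an Illumina HiSeq instrument. Per the labels and the study's methods, the authors aligned the reads with ELAND in CASAVA 1.8.2 to mouse build mm9, counted them per gene in Avadis NGS and normalized them with DESeq. The authors deposited 28 tables of log2 values for 2 libraries each: 10 pair the lines within a day and 9 per line pair consecutive days. In each table the log2 values were centered on the mean of the pair and normalized separately, and normalized counts of 1 or less were set to 0 on the log2 scale, so ratios of genes with few reads are too small. The lane on which each library was run and the strand setting of the counting are not given in the sources used here, and batches by lane were therefore not examined.

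Levels were judged from the rounding step of the single-precision values (0.7 quantile over the tables), which gave a filter of a log2 normalized count of 4. Size factors were recovered from low values that match whole counts. In 8 of the 9 loops formed by neighboring days of both lines the values of the 4 tables closed within 1e-05 for 91.1% to 92.6% of 14692 genes. The loop of days 3 and 4 did not, so its control table was left out and 27 tables were joined by least squares, with libraries scaled on the median gene. Joined ratios differed from same-day ratios by between -0.068 and 0.124 in the median over genes, depending on the day. Reads were recovered where the joined ratios matched whole bases (49 to a read) on a single scale, or, for Ptpn7, from tables in which 1 library stood at the floor.

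Same-day ratios of 9 days, without day 6, were fitted with limma 3.58.1 (R 4.3.3; lmFit and eBayes) with Benjamini-Hochberg adjustment over all genes tested and a threshold of 0.05. Slopes on day were fitted to the ratios and to values added up along the consecutive-day tables of a line. For the control line these include the table of days 3 and 4, which was left out of the joined values. The exact sign-flip permutation test of single genes was two-sided. Days stand in for replicates, so p-values measure the spread over days of 1 line each. The 2 libraries of a day were paired because the lines were collected on the same days, and the fit without this pairing is an alternative. Scripts were run on simulated tables with whole reads per library, so the recovery of reads counted in part was not tested there. The design had foreseen normalized levels, so no pseudocount could be varied.

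Coordinates are from GENCODE M1 on NCBIM37. At most 3.75% of the exonic 49-base sequences of a member occurred elsewhere in the genome (Ptpn7), and no other annotated gene overlapped a member's exons. Promoter sequences are from RefSeq (GRCm38.p6), where 6 of the 9 members were used, without Mapk3, Dusp4 and Spry4. The members and gene lists were chosen with earlier results of these data known. Named genes were the 9 members and Hprt, up to 3 called genes per direction of each pathway list with the same sign on at least 8 of 9 days, the 2 nearest patterns of each member, and the extremes of each marker list. Some genes that this rule names are not reported here.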

Additional observations from a re-analysis of the deposited data

Results flagged for a closer look

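In a group of 10 values, the most extreme one was marked when the share of the group's range taken by its gap to the next passed Dixon's 95% critical value. Chance marks about 1 in 20 such groups, and 1 of the 30 examined was marked. The ratio of Spry4 on day 0, -1.31, stood apart from its ratios on the other 9 days.

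The slope of the Mapk3 ratio on day, 0.0651 per day, differed between the lines by the limma test of the difference itself (adjusted p = 0.018), and it was lost without day 14 and on a log2(day + 1) axis.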

How the results depend on the processing

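Of 592 values recomputed under alternative settings for 47 results, 528 were alike: single effects kept their direction and their side of the threshold, and counts stayed within 1.5 times the reported count. The count of members that differed between the lines, 4, was between 3 and 4 when single days were left out and was 5 with no filter. The fit with no replicate block, which does not pair the libraries of a day, gave 3 members, without Map2k2, and 48 of the other pathway genes against 56. Those genes were called between 46 and 56 times when days were left out. The mean of Hprt, -4.00, lay between -4.19 and -3.88.

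Slopes depended more on the setting. Over all genes, 1895 had a called slope of the ratio, against 610 without day 12, and 1691 a called knockdown slope, against 122 on a log2(day + 1) axis and 196 without day 14. The ratio of 1 member had a called slope, against 2 with the stricter filter, 0 on a log2(day + 1) axis and 0 to 2 with a day left out. In the control line 2 members were called, against 1 on a log2(day + 1) axis and 1 to 2 with a day left out. In the knockdown line 1 was called, against 2 with no filter, 2 with the stricter filter, 2 with all tables joined, 0 on a log2(day + 1) axis and 0 to 3 with a day left out. The cause was not tested. Beside the changes named in the report, calls were gained by the control slope of Mapk3 with all tables joined (0.0293, limma adjusted p = 0.0338) and of Dusp4 without day 14 (0.108, 0.0296), by the knockdown slope of Dusp6 without day 0 (-0.0887, 0.0401), and by that of Map2k2 with no filter (0.0479), the stricter filter (0.0409) and all tables joined (0.0452). Leaving out days 0, 1 and 2 together was chosen after seeing the data.

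Values that changed sign were all of results past no threshold. With a day left out, the mean ratio ranged from -0.18 to 0.11 for Spry1 and from -0.068 to 0.18 for Spry4. The slope of the ratio ranged from -0.0336 to 0.00339 for Map2k1, from -0.0657 to 0.0841 for Ptpn7, from -0.0802 to 0.00746 for Dusp6, from -0.0304 to 0.0364 for Spry2 and from -0.027 to 0.0391 for Spry4. The control slope ranged from -0.0223 to 0.000552 for Dusp6 and from -0.000277 to 0.0312 for Spry2, and the knockdown slope from -0.0272 to 0.021 for Spry1, from -0.00959 to 0.034 for Spry2 and from -0.000478 to 0.0625 for Spry4. On the log2(day + 1) axis the slope of the ratio was 0.11 for Dusp6 and the control slope -0.0166 for Spry2. Another pseudocount was not run, since the files hold no levels.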

Other observations

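Day 6 entered no test. On that day the ratios of 4 members were below 0 and of 5 above it. They were 0.13 for Mapk3, 0.19 for Map2k1, -0.41 for Map2k2, -1.78 for Ptpn7, 0.29 for Dusp4, 0.12 for Dusp6, -0.64 for Spry1, -0.24 for Spry2 and 0.25 for Spry4. The ratio of Map2k2 was lower than on any other day. Some pathway genes, picked after their values were seen, had the same sign on all 9 other days and the opposite one on day 6, with Pea15a at -0.14, Mycn at 0.78, Klf2 at 1.31 and Fgf4 at 0.69, and the mean ratio of the 10 pluripotency markers was 0.26.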
